A study of Bos taurus with 24 samples.

Results

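Granulosa cells of 10 Holstein cows were compared by the morphology of the blastocysts their oocytes gave. The good-morphology group held the 7 cows with a morphology score of 2.60 or more (cows 3, 5, 7, 11, 21, 22 and 23), and the poor-morphology group held the 3 cows with a score of 1.50 or less (cows 9, 13 and 14). They were 10 of the 24 cows of the series. Cows 1 and 15 gave no blastocysts, so their morphology score of 0 does not describe an embryo, and they were left out, as was cow 8, which the study had excluded. The nearest cows outside the limits were cow 6, with 2.57, and cow 10, with 1.86. The 11 cows between the limits entered no group and served as separate samples on which the same genes were looked up.

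The study asked whether RNA in granulosa cells marks donor cows that do well in in vitro embryo production (IVP). Ovaries came from slaughtered cows whose cycles had not been synchronised, cells were drawn from all antral follicles of both ovaries, leukocytes were removed with beads against CD45, and erythrocytes were lysed. The cumulus-oocyte complexes were matured, inseminated and cultured to the blastocyst stage. All 10 cows shared this protocol and no cow was treated. The groups differed in the semen used. A bull's class in the Nordic Total Merit index (NTM) was High for 6 good-morphology cows and Low for 1 (cow 5), and it was High for 1 poor-morphology cow (cow 13) and Low for the other 2 (cows 9 and 14). The granulosa cells had been taken before insemination, but the morphology scores that define the groups were given after it. The study tested genes against scores adjusted for the bull, while the groups here rest on the unadjusted scores. Values within each bull class are given beside the genes described below, as a description only. In each of those genes the groups did not overlap, so the direction within a bull class was fixed beforehand. The part of the individual bull in the scores, and of whatever else goes with the bull class, was not tested.

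Granulosa cells line the antral follicle and surround the oocyte. They respond to follicle-stimulating hormone, convert androgens to oestradiol, and exchange metabolites and signals with the oocyte through the cumulus layer, and in atresia they are among the first follicular cells to die. The morphology of a blastocyst, that is the appearance of its inner cell mass and trophoblast, is graded by eye, and each score here is the average class over the blastocysts of a cow. One library per cow pools follicles of many sizes and states, and the follicle that held a given oocyte cannot be traced. The number of blastocysts behind each score is not given in the labels. The files list genes by Ensembl identifier without symbols, and the gene table used here matched 0 of the 24616 identifiers. The label granulosa was therefore not checked against markers here, markers of theca cells and leukocytes could not be looked up, and no pathway could be counted. The study itself reported that CYP17A1, a gene of theca cells, was expressed too low to pass its filter. A different mixture of cells and a different amount of RNA per cell cannot be told apart in such libraries.

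Among the good-morphology cows the score was 3.00 in cows 3, 5, 21 and 22, 2.75 in cow 23, 2.67 in cow 7 and 2.60 in cow 11. Among the poor-morphology cows it was 1.50 in cows 13 and 14 and 1.00 in cow 9. Good blastocysts did not come with a blastocyst (BL) rate that was separable from that of the poor group. The BL rate was 36% in cow 3, 29% in cow 5, 50% in cow 7, 25% in cow 11, 33% in cow 21, 40% in cow 22 and 57% in cow 23. It was 20% in cow 9, 46% in cow 13 and 33% in cow 14. The ranges overlapped, and poor-morphology cow 13 had a higher BL rate than 5 of the 7 good-morphology cows. The mean was 38.6% ± 11.4 (SD, n = 7) against 33.0% ± 13.0 (SD, n = 3), a difference of 5.57 percentage points (two-sided exact permutation test over all 120 splits, p = 0.525, adjusted p = 0.525 over both scores). Without cow 9 the sign turned and the difference was -0.929 percentage points.

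The kinetic score describes how far the blastocysts of a cow had developed at the time of scoring. In the good-morphology group it was 1.50 in cows 3, 21 and 22, 1.33 in cow 5, 1.29 in cow 11, 1.25 in cow 7 and 1.88 in cow 23. It was 1.33 in cows 13 and 14 and 1.00 in cow 9. The groups overlapped between 1.25 and 1.33. The mean was 1.46 ± 0.213 (SD, n = 7) in the good group and 1.22 ± 0.191 (SD, n = 3) in the poor group (difference 0.244, p = 0.183 by the same exact permutation test, adjusted to 0.367). The smallest p that 7 against 3 cows can give is 0.00833.

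**Figure D1:**
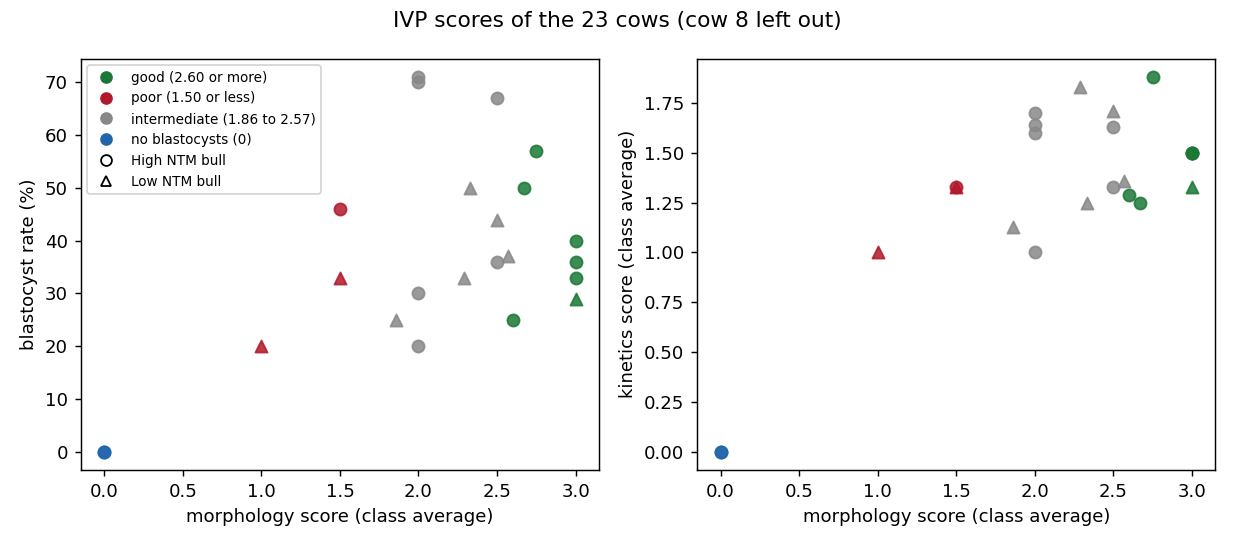
Each point is 1 of 23 cows, with the morphology score on the horizontal axes and the BL rate in percent (left) or the kinetic score (right) on the vertical axes. Colours mark the morphology groups, circles High and triangles Low NTM bulls, and points with equal scores lie on top of each other. The green good-morphology cows span BL rates of 25% to 57% and the red poor-morphology cows 20% to 46%.

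The libraries themselves were alike in depth. Between 21488333 and 27074496 read pairs per good-morphology cow and between 22425883 and 26095210 per poor-morphology cow were counted on genes. From 15984 to 16575 genes had at least 1 count in the good group and from 15562 to 16714 in the poor group, and the 10 highest genes held 20.9% to 39.5% and 28.6% to 32.7% of the counts. None of these measures differed beyond the spread between cows (two-sided exact permutation tests, smallest p = 0.483, all adjusted p = 0.808 over 3 measures). Expression is given below in counts-per-million (CPM) scaled by the TMM factors of edgeR. Genes reaching 1 CPM in 3 or more of the 10 libraries were tested, which left 12307 of the 24615 genes listed for all cows.

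Good-morphology cows were about as alike among themselves as they were to poor-morphology cows. Across genes, the log2 CPM of 2 good-morphology cows had a median correlation of 0.948 (21 pairs, 0.90 to 0.975), that of 2 poor-morphology cows 0.945 (3 pairs, 0.939 to 0.955) and that of a good with a poor cow 0.947 (21 pairs, 0.913 to 0.973). These pairs share cows and are given as a description. A gene varied about as much inside each group, with a median SD of 0.30 on the log2 scale among the good and 0.29 among the poor cows. The first principal component held 38.7% of the variance and did not split the groups. Cow 21, with a score of 3.00, lay at 63.3 on it beside cow 13, with a score of 1.50, at 61.7. Cow 14, with a score of 1.50, lay at -13.7 among 6 good-morphology cows between -44.4 and -12.6, and cow 9 lay apart at 25.2.

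**Figure D2:**
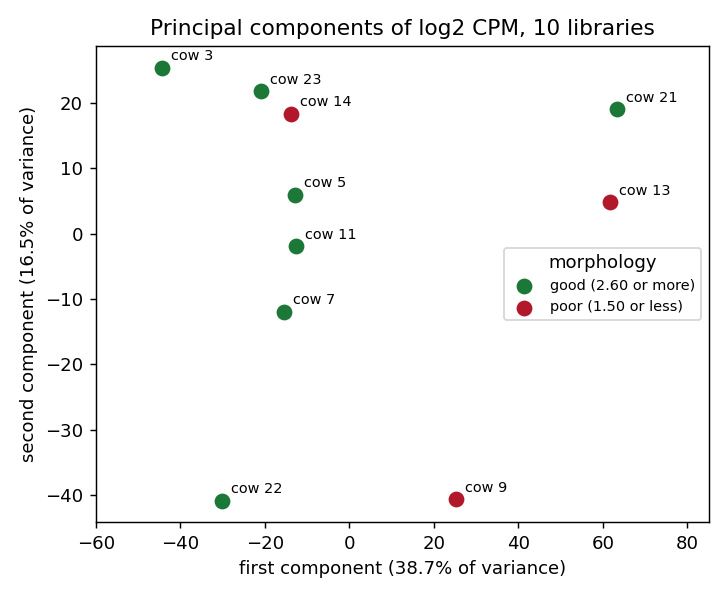
Each point is the granulosa library of 1 cow, placed by the first and second principal components of log2 CPM over the 12307 tested genes. Cow 21 (good) and cow 13 (poor) sit together on the right, and cow 14 (poor) sits among the good-morphology cows on the left.

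No gene passed an FDR of 0.05 between good and poor morphology in edgeR, whose quasi-likelihood p-values were adjusted by the Benjamini-Hochberg method (0 of 12307 genes, 0%). The smallest FDR was 0.988. At an unadjusted p under 0.05 there were 586 genes (4.76% of those tested), 343 of them higher in the good group (2.79%) and 243 lower (1.97%). That share is no larger than the threshold itself. At an unadjusted p under 0.01 there were 53 genes (0.431%) and under 0.001 there were 2 (0.0163%). Over 20 bins of p of width 0.05 the number of genes lay between 571 and 663, with 586 in the lowest bin, where equal filling would give 615.4. Limma voom with quality weights also called 0 genes at an FDR of 0.05 (smallest FDR 0.879) and gave 538 genes at an unadjusted p under 0.05 (4.37%). DESeq2's Wald test called 5 genes as higher in the good group (0.0406%) and 0 as lower, with 771 genes at an unadjusted p under 0.05 (6.26%). The study did call genes for morphology at an FDR of 0.05, by regression over more cows. Its scores were adjusted for the bull, and its model held age, RNA quality and sampling date. Its calls and the counts here therefore measure different things.

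**Figure D3:**
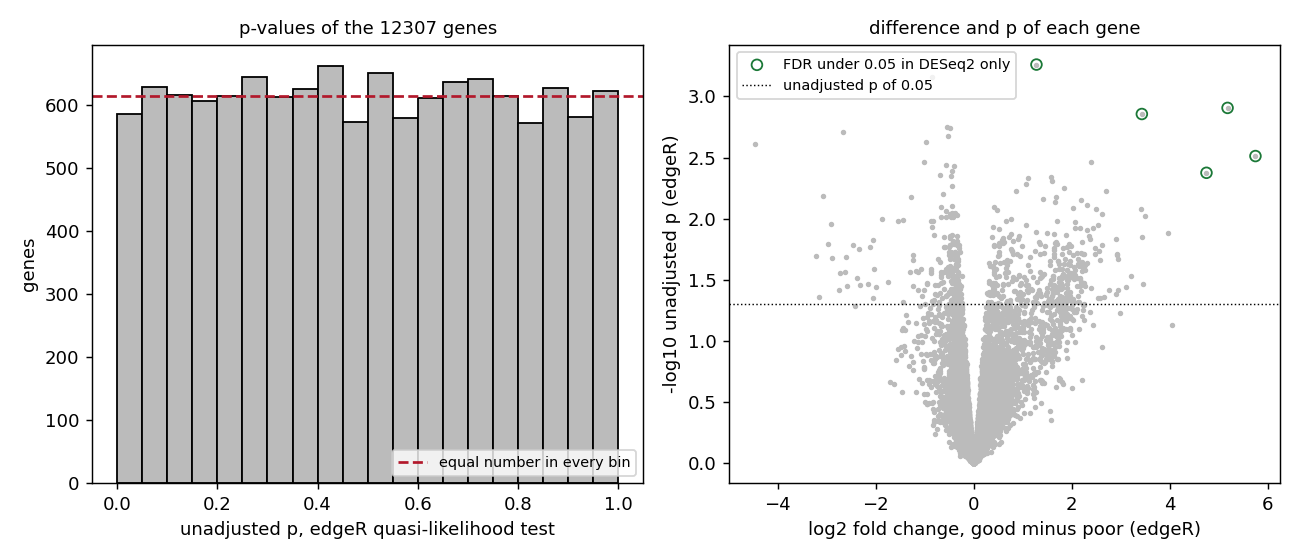
On the left, bars give the number of the 12307 genes in each bin of unadjusted p from edgeR, and the dashed line marks equal filling. On the right, each dot is a gene, with its log2 fold change (good minus poor) against -log10 of the unadjusted p, and green rings mark the 5 genes that passed an FDR of 0.05 in DESeq2 alone. The lowest bin, with 586 genes, is not taller than the others, and dots with large differences lie mostly on the right, higher in good morphology.

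Most differences were bounded although none passed. The 95% interval of the log2 fold change, taken gene by gene without adjustment, reached 0.46 to either side of the estimate in the median gene, and for 9443 genes (76.7%) it lay within a 2-fold difference in either direction. For 11449 genes (93.0%) it lay within a 4-fold difference. Precision followed the level of the gene. Among the 3838 genes with a log2 CPM of 5 or more, 89.2% had an interval within 2-fold. Among the 6244 genes between 2 and 5 it was 84.7%, and among the 2225 genes under 2 it was 33.0%. The group means of 582 genes (4.73%) were over 2-fold apart. The intervals rest on a quasi-likelihood estimate for each gene, which edgeR moderates with information shared across genes. As a separate summary over all genes, the common dispersion of edgeR equalled a biological coefficient of variation of 32.5%.

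At an unadjusted p under 0.05 the median fold was 3.06 for the 343 genes higher in good morphology and 1.37 for the 243 genes lower in it. Over 2-fold differences were held by 238 of the former and 40 of the latter. These sizes depend on the filter, which a gene low in the poor group can pass through the 7 good-morphology cows alone, while a gene low in the good group needs all 3 poor-morphology cows. With 1 CPM required in 9 of the 10 libraries (11086 genes), the numbers were 220 higher and 191 lower, with median folds of 1.76 and 1.35. Among the 243 lower genes, 22 owed a high poor-group mean to 1 cow whose CPM was over 3 times that of the next poor-morphology cow. Among the 343 higher genes, 1 had a good-morphology cow over 3 times the next of the 7. Under upper-quartile scaling the split was 441 higher and 145 lower (75.3% higher, against 58.5% under TMM). With the NTM class of the bull in the model it was 261 higher and 340 lower, and in limma voom it was 200 and 338, so which direction held more genes depended on the model.

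Groups that did not overlap were rare. In 48 genes (0.390%) the good-morphology cows were all above the poor-morphology cows, and in 57 genes (0.463%) they were all below, which makes 105 genes (0.853%). Of these, 82 had an unadjusted p under 0.05, which 4.76% of all genes had. Both measures rest on the same values. The median log2 fold change was 0.52 in the genes above and -0.35 in the genes below.

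ENSBTAG00000043297 had the smallest p of all genes tested. In this and the next genes, the CPM of each of the 10 cows was scaled over these 10 libraries, and the values within NTM classes and in the other cows over all 24, so that cow values can differ slightly between them. Its CPM was 0.935 in cow 9, 1.29 in cow 13 and 0.965 in cow 14. It was 2.81 in cow 3, 2.46 in cow 5, 2.94 in cow 7, 2.83 in cow 11, 1.90 in cow 21, 2.11 in cow 22 and 3.13 in cow 23. The good-morphology cows were all above the poor-morphology cows, and the lowest of them was cow 21. The log2 fold change was 1.28 (SE 0.27, 95% interval 0.69 to 1.87), a 2.43-fold difference (edgeR, unadjusted p = 0.000549, FDR = 0.988), and DESeq2 gave an FDR of 0.0256. The smallest set of reads behind it was 20 in a poor-morphology cow. Within High NTM bulls the mean of the good group was 2.65 against 1.30 in cow 13, and within Low NTM bulls cow 5 had 2.49 against a mean of 0.955. The 11 cows with intermediate scores lay between 1.26 and 2.79, with a median of 1.67, and 10 of them were above every poor-morphology cow. Within them no slope on the score was resolved (slope -0.54 on the log2 scale per score unit, SE 0.51, unadjusted p = 0.308). The cows without blastocysts had 1.37 (cow 1) and 0.983 (cow 15), in the range of the poor group or just over it.

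ENSBTAG00000012638 showed a much larger but less even difference. Its CPM was 1.22 in cow 9, 0.647 in cow 13 and 0.270 in cow 14. It was 26.5 in cow 3, 8.91 in cow 5, 3.57 in cow 7, 12.7 in cow 11, 4.70 in cow 21, 82.4 in cow 22 and 38.7 in cow 23. All good-morphology cows were above all poor-morphology cows, with the highest level in cow 22 and the lowest in cow 7. The log2 fold change was 5.18 (SE 1.21, 95% interval 2.52 to 7.84), a 36.2-fold difference (edgeR, unadjusted p = 0.00124, FDR = 0.988). It was 4.51 on the log2 scale without cow 22 and 5.78 without cow 9. DESeq2 gave an FDR of 0.000605 and limma voom an unadjusted p of 0.107. Within High NTM bulls the good group averaged 28.5 against 0.652 in cow 13, and within Low NTM bulls cow 5 had 9.00 against a mean of 0.746. The 11 intermediate cows covered nearly the whole range, from 0.304 to 39.7 with a median of 5.03, and 2 of them were no higher than the highest poor-morphology cow. Within them the slope was 1.84 per score unit (SE 2.35, unadjusted p = 0.449). Cow 15, which gave no blastocysts, had 19.6, more than 4 of the good-morphology cows.

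ENSBTAG00000005261 had the smallest p among genes lower in good morphology. Its CPM was 100.2 in cow 9, 99.7 in cow 13 and 109 in cow 14. It was 51.6 in cow 3, 64.3 in cow 5, 68.5 in cow 7, 58.9 in cow 11, 45.2 in cow 21, 72.8 in cow 22 and 38.8 in cow 23. The poor-morphology cows lay close together above all 7 good-morphology cows. The log2 fold change was -0.85 (SE 0.18, 95% interval -1.25 to -0.45; edgeR, unadjusted p = 0.000692, FDR = 0.988), and DESeq2 gave an FDR of 0.103. Within High NTM bulls the good group averaged 56.7 against 100.4 in cow 13, and within Low NTM bulls cow 5 had 65.0 against a mean of 105. The intermediate cows did not form a step between the groups. All 11 intermediate cows were below every poor-morphology cow (17.5 to 68.7, median 42.4), their slope was -0.47 per score unit (SE 0.59, unadjusted p = 0.448), and the cows without blastocysts had 45.5 and 41.3. The only library of the series above the poor group was that of the excluded cow 8, with 150 CPM.

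ENSBTAG00000015628 differed less, and it had the smallest SD relative to the mean in the poor group among these 4 genes. Its CPM was 27.9 in cow 9, 27.6 in cow 13 and 26.1 in cow 14. It was 15.2 in cow 3, 18.7 in cow 5, 19.1 in cow 7, 18.8 in cow 11, 20.5 in cow 21, 22.6 in cow 22 and 15.2 in cow 23. The groups did not overlap. The log2 fold change was -0.55 (SE 0.14, 95% interval -0.85 to -0.25; edgeR, unadjusted p = 0.00178, FDR = 0.988), and DESeq2 gave an FDR of 0.251. Within High NTM bulls the good group averaged 18.8 against 27.8 in cow 13, and within Low NTM bulls cow 5 had 18.9 against a mean of 27.1. Of the intermediate cows 9 of 11 were below the poor group (15.1 to 27.8, median 21.8), with a slope of 0.28 per score unit (SE 0.36, unadjusted p = 0.461).

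**Figure D4:**
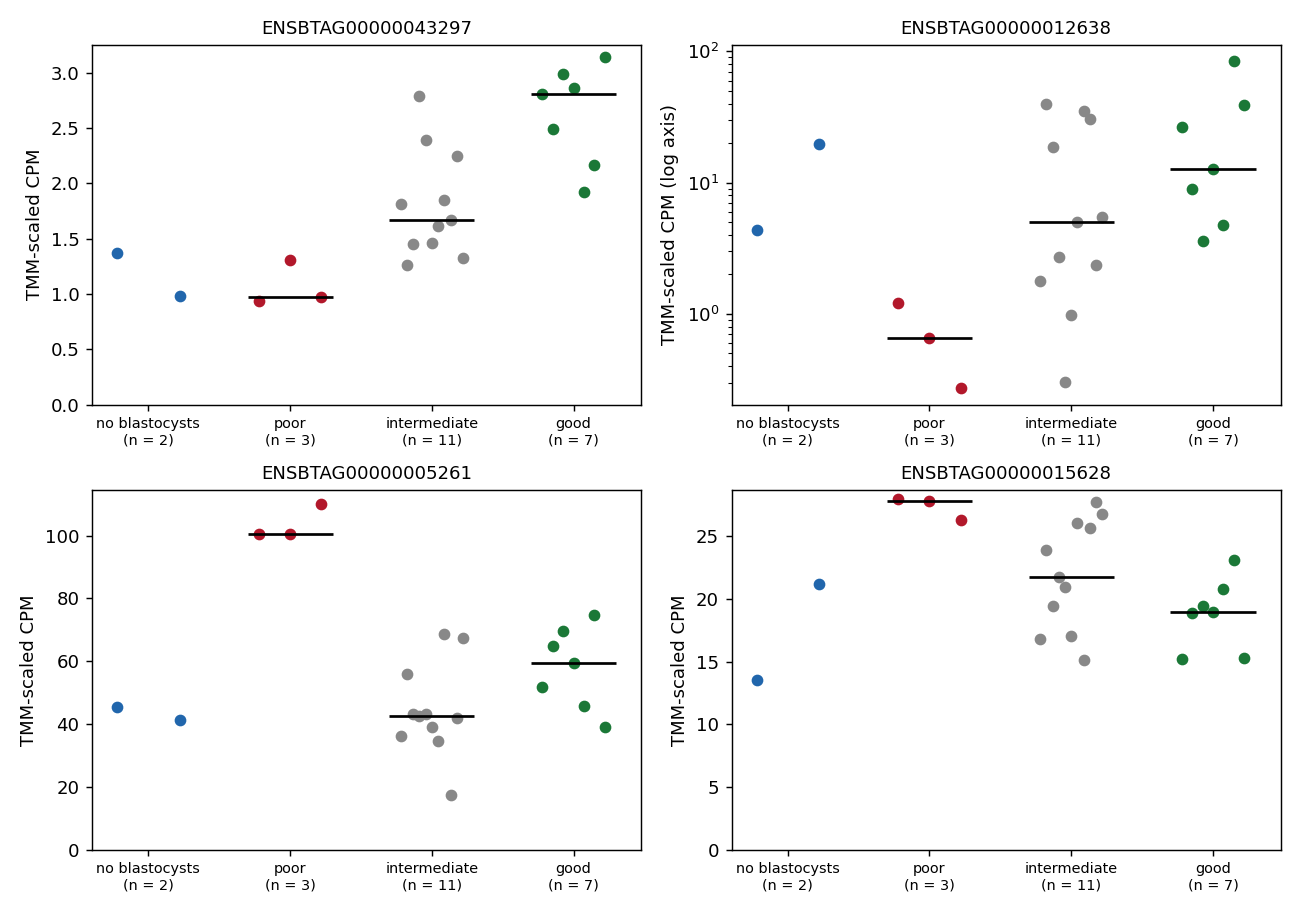
Each panel is 1 gene and each point 1 of 23 cows, with CPM scaled over the 24 libraries of the series on the vertical axis (a log axis for ENSBTAG00000012638). Horizontal lines are medians. In the upper panels the 7 good-morphology cows lie above the 3 poor-morphology cows, in the lower panels they lie under the poor group, and the 11 intermediate cows reach from one group to the other except for ENSBTAG00000005261, where they all lie below the poor group.

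The next genes by p were of the same kinds. Genes picked by p tend to have groups that do not overlap, which held for 0.853% of all genes. The 6 genes with the smallest p among those higher in good morphology had folds of 2.43 to 53.7, and the groups did not overlap in any of the 6. The 6 on the other side had folds of 1.39 to 6.37, and in 4 of them the groups did not overlap. One of those 6 had 743 CPM in cow 14 and 45.4 CPM in the lowest poor-morphology cow, and its unadjusted p rose to 0.255 at most when 1 cow was left out. The 5 genes that DESeq2 called were all among the 6 higher genes. Cow 22 had the highest level of the 24 cows in 3 of the 5, and these 3 genes, picked out after their values were seen, shared 5 of their 6 highest cows. Low counts lay behind the 53.7-fold gene, which had 1 to 3 read pairs in each poor-morphology cow, 6 in all, against 927 in the good group. Its ratio of summed counts per scaled library size was 64.4, which pools reads over cows and does not measure the spread between them. The CPM of this gene was 20.5 in cow 22 and 0.415 in the lowest good-morphology cow, with a good-group mean of 4.76. It was at most 0.140 in the poor group, so the gene passed the filter through good-morphology cows alone. The same held for other genes of the 6. The 26.9-fold gene, also called by DESeq2, had 4 to 6 read pairs in each poor-morphology cow. The 5.26-fold gene, which DESeq2 did not call, had 1 to 6. Each had at most 0.2805 CPM in the poor group.

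Single cows decided how many genes stood out. In edgeR the number with an unadjusted p under 0.05 was 216 without cow 13, 359 without cow 23 and 386 without cow 9, and it was 1265 without cow 14 and 1131 without cow 21, against 586 with all cows. No gene passed an FDR of 0.05 in edgeR in any of the 10 fits that left out 1 cow. In DESeq2, in fits added after the data were seen, the number called was 221 without cow 14 (186 higher, 35 lower) and 196 without cow 21 (178 higher, 18 lower), 13 without cow 22, 8 without cow 9 and 2 without cow 13, of which 1 was among the 5. On the first component, cow 14 lay among good-morphology cows and cow 21 beside poor-morphology cow 13. Whether these places go with the counts was not tested. Of the 586 genes, 56 (9.56%) kept an unadjusted p under 0.05 in all 10 edgeR fits, 40 higher and 16 lower, with folds of 1.27 to 53.7. The groups did not overlap in 26 of the 56, where 0.853% of all genes had no overlap. The 56 were picked by p on the same values, so a larger share follows in part from that choice.

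**Figure D5:**
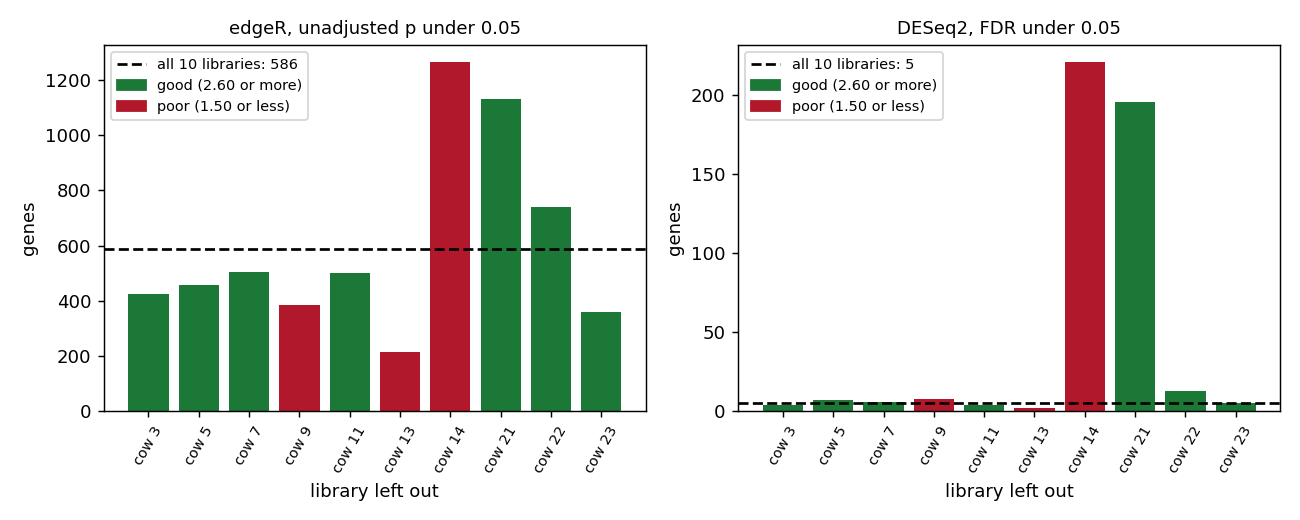
Bars give the number of genes when the library of the cow named below is left out, for an unadjusted p under 0.05 in edgeR (left) and an FDR under 0.05 in DESeq2 (right). Green bars are good-morphology and red bars poor-morphology cows, and dashed lines mark the count with all 10 libraries (586 and 5). Without cow 14 or cow 21 both counts are several times those without most other cows.

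The 11 intermediate cows, with scores of 1.86 to 2.57, share no library with the groups. Of these, cow 24 had the lowest total count, 15525201, and the most genes with at least 1 count, 21629. No gene followed the score of the 11 cows at an FDR of 0.05 in edgeR (smallest FDR 0.433), nor without cow 24. With all 11 cows, 1343 genes (10.9%) had an unadjusted p under 0.05. The shares below include cow 24. Over all 12307 genes, 60.3% had a slope of the same sign as the difference between good and poor morphology. Of the 343 genes higher in good morphology, 279 (81.3%) had a positive slope, where 51.6% of all genes had one. Of the 243 lower genes, 161 (66.3%) had a negative slope, where 48.4% of all genes had one. An unadjusted p under 0.05 in both was held by 96 genes, and 94 of them had the same sign. Among the 56 genes that kept their p without any 1 cow, 47 (83.9%) had the same sign, but among the 105 genes whose groups did not overlap only 61 (58.1%) had. Genes move together, so these shares are descriptions and carry no test.

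A first principal component computed over the 21 cows together (41.9% of the variance) lay at 53.4 in cow 13, 21.7 in cow 9 and -14.0 in cow 14, at 55.6 in cow 21, and between -39.3 and -5.66 in the other 6 good-morphology cows. In the intermediate cows it ran from -81.9 (cow 19) to 91.6 (cow 12). Its correlation with the morphology score over these 11 cows was r = -0.545 (permutation test with 100000 resamples, two-sided, p = 0.0861) and rho = -0.507 (permutation p = 0.113). Without cows 12 and 19, the farthest from the median, r was -0.383. In 89.8% of all genes the slope in the intermediate cows had the sign opposite to the gene's weight on this component. The difference between good and poor morphology did so in 62.6% of all genes. Among the 586 genes with an unadjusted p under 0.05 in edgeR it did so in 81.6%. The component was computed from these same cows. The RNA integrity number (RIN), a measure of RNA quality, was a term of the study's own model because it went with the first component there. RIN, age, follicle sizes and sampling date of each cow are not given in the labels, so their part in this component, in the counts without cows 14 and 21 and in the shares above was not tested.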

How the data were processed

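RNA of granulosa cells was sequenced as stranded total RNA after ribosomal depletion, with 1 library per cow. The authors deposited raw counts per Ensembl gene, made with STAR on the UMD3.1 genome and HTSeq, per the labels, which had not been normalized or corrected for GC content. No deposited column went unused (0 columns).

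Cows were grouped by the morphology score in the labels. The members, gene lists and tests were chosen with earlier results of these data known. Counts of the 24615 genes listed for all cows were filtered (1 CPM or more in 3 or more of the 10 libraries), TMM-scaled and compared, good against poor without covariates, by quasi-likelihood F tests in edgeR 4.0.16 under R 4.3.3, with Benjamini-Hochberg adjustment over 12307 genes at an FDR of 0.05. Fold changes, standard errors and 95% intervals come from this fit, and principal components used log2 CPM with a prior count of 2. The script was tested on simulated data. Slopes in the intermediate cows used the same test. Scores and library measures were compared with two-sided exact permutation tests (scipy 1.17.1, Python 3.11.15).

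Alternatives were DESeq2 1.42.0, limma voom 3.58.1, other scalings and filters, NTM class, BL rate or kinetic score as covariate, a regression over 21 cows, only the score of 3.00 against poor, and each cow left out. Named genes are those with the smallest p in each direction, 2 per direction because no symbols were matched. No 2 libraries were duplicates (at least 64.4% of genes differed in count in every pair). The cows are separate animals. Total counts were at least 21488333 per cow in the 10 grouped cows, and intervals were widest in genes with few counts. Gene lists, markers and sequences are not reported here because the identifiers were not paired with names.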

Additional observations from a re-analysis of the deposited data

Results flagged for a closer look

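Of 10 measures examined for a cow far from the rest of the 7 good-morphology cows, 1 stood out, and about 1 in 20 would by chance. The poor-morphology group, with 3 cows, was too small to be examined in this way. The kinetic score of cow 23 was 1.88, while the next highest good-morphology cows had 1.50. Cow 23 also had the highest BL rate of the good-morphology group, 57%, with a morphology score of 2.75. Without it, the edgeR count of genes at an unadjusted p under 0.05 was 359 in place of 586.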

How the results depend on the processing

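The count of 0 genes at an FDR of 0.05 held in limma voom, and in edgeR under every scaling, filter, covariate and left-out cow tried. It moved to 5 under DESeq2's Wald test, to 5 (the same 5 genes) in DESeq2 without replacement of outlying counts, and, in DESeq2 with 1 cow left out, to 4 (cow 3), 7 (cow 5), 6 (cow 7), 8 (cow 9), 4 (cow 11), 2 (cow 13), 221 (cow 14), 196 (cow 21), 13 (cow 22) and 5 (cow 23). The DESeq2 fits other than the first were added after the data were seen. Leaving out 1 cow moved the BL rate difference between -0.929 and 12.1 percentage points, the kinetic difference between 0.134 and 0.299, the difference in total count between -513212 and 1321452 and that in genes with a count between -210.9 and 365. The number of genes at an unadjusted p under 0.05 was 965 without a filter (19427 genes tested), 363 with BL rate and 293 with the kinetic score as covariate, 284 with only the score of 3.00 against poor, and 298 with the spread estimated together with the intermediate cows. It was 601 with NTM class as covariate, and this class is split unevenly between the groups. The 4 named genes kept their direction in every fit of the group difference (log2 fold change of ENSBTAG00000043297 1.12 to 1.46, ENSBTAG00000012638 4.21 to 5.79, ENSBTAG00000005261 -0.91 to -0.66, ENSBTAG00000015628 -0.60 to -0.46). They were picked by p from the same libraries, and their groups did not overlap. The kept direction was therefore largely set by that choice. For ENSBTAG00000012638 the log2 fold change was 4.21 with the kinetic score and 4.53 with NTM class as covariate and 4.39 in limma voom. The regression over 21 cows gives another quantity, the log2 slope per score unit, which was 0.61, 2.51, -0.42 and -0.26 for the same genes in that order. For all 4 genes the FDR was never under 0.05 outside DESeq2. ENSBTAG00000012638 was not in the stricter filter. The causes of these shifts were not tested. No paired analysis was possible because replicate numbers within a group follow accession order and pair no cows. With 3 poor-morphology cows, genes under a log2 CPM of 2 were mostly not bounded within 2-fold.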
